A study of Homo sapiens with 4 samples.

Results

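Eph receptors are receptor tyrosine kinases, and ephrins are their ligands, held in the membrane of the neighbouring cell. The transcripts of 10 of these genes were followed in HGC-27, a human line from gastric cancer, with and without an edited RUNX3 gene: the receptors EPHA2, EPHA4, EPHA7, EPHB2, EPHB3 and EPHB4 and the ligands EFNA1, EFNA5, EFNB1 and EFNB2. The genes were taken by symbol from the 25559 gene symbols of the count tables. All 10 symbols were found, and all 10 passed the filter on low counts that left 12967 genes for testing.

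RNA-seq was carried out on 2 libraries of wildtype cells (HGC27 wt, here control) and 2 libraries of RUNX3 knock-out cells (RUNX3KO, here RUNX3 KO). Both conditions were HGC-27 cells grown in medium with serum under the same culture conditions, with no other agent named in the labels. In the study, Cas9 and a guide to an exon of RUNX3, a Runt-family transcription factor, were delivered to the cells, which were selected with puromycin and cloned from single cells. The number of clones behind the RUNX3 KO libraries is not stated, so a clone and the edit cannot be told apart. Nothing states that replicates came from separate cultures, and p-values then measure only the spread between these libraries, which may be technical. Library totals ranged from 11731401 to 12110876 reads counted on genes.

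Binding of an ephrin to an Eph receptor sends a signal into both cells. Forward signalling runs through the kinase domain of the receptor and reverse signalling runs through the ephrin. Ephrin-A ligands are anchored by a lipid and mainly bind EphA receptors, whereas ephrin-B ligands span the membrane and mainly bind EphB receptors, and EPHA4 binds ligands of both classes. The contacts cause cells to repel or adhere, and in the gut epithelium EPHB2 and EPHB3 are known for keeping cells in position along the crypt axis.

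The targeted gene was examined first. RUNX3 itself had 351 and 308 counts in control and 225 and 185 in RUNX3 KO libraries. Its level fell from 27.9 ± 2.57 to 17.2 ± 2.60 CPM (reads per 1000000, scaled by TMM; mean ± SD, n = 2). The log2 fold change was -0.70 (SE 0.0961; 95% interval -0.89 to -0.51; adjusted p = 1.43e-09) in the quasi-likelihood test of edgeR, adjusted by Benjamini-Hochberg over every tested gene. The same test gives every adjusted p below unless another is named. RUNX3 transcript was thus lower, but present, in the libraries labelled RUNX3 KO. The study also examined RUNX3 transcript by RT-qPCR and RUNX3 protein by immunoblot, which were not analysed here. A count of transcript does not give the level of protein, so these counts do not show a partial knock-out. Without RUNX3KO replicate 2 the log2 fold change was -0.55 and the adjusted p 0.0649.

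Of the 10 genes, 5 fell, 2 rose and 3 did not pass the test at an adjusted p under 0.05. The receptors EPHA4, EPHA7, EPHB2 and EPHB3 and the ligand EFNB2 fell, each by more than 2-fold, and the ligands EFNA1 and EFNA5 rose by 1.27-fold each. EPHA2, EPHB4 and EFNB1 did not pass. EPHA7 passed the filter on low counts only through its control libraries. Under a filter of 10 counts in every library, which leaves EPHA7 out, 4 of the genes fell, by either criterion used here. Among all tested genes 24.4% were called lower and 24.5% higher by this rule. The study's own criteria were a change of at least 2-fold and an unadjusted p of at most 0.05. By these, in edgeR's quasi-likelihood test, 5 of the 10 were lower and 0 higher, beside 4.01% and 2.11% of all tested genes. The 10 genes were chosen with earlier results of these data known, so setting them beside all genes is a description and not a test. DESeq2, edgeR's exact test and limma-voom also placed 0 of the 10 past 2-fold higher, and 2 of the 10 were higher at an unadjusted p under 0.05 whatever the fold. The median log2 fold change was -0.58 over the 10 genes and -0.0021 over all tested genes.

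**Figure D1:**
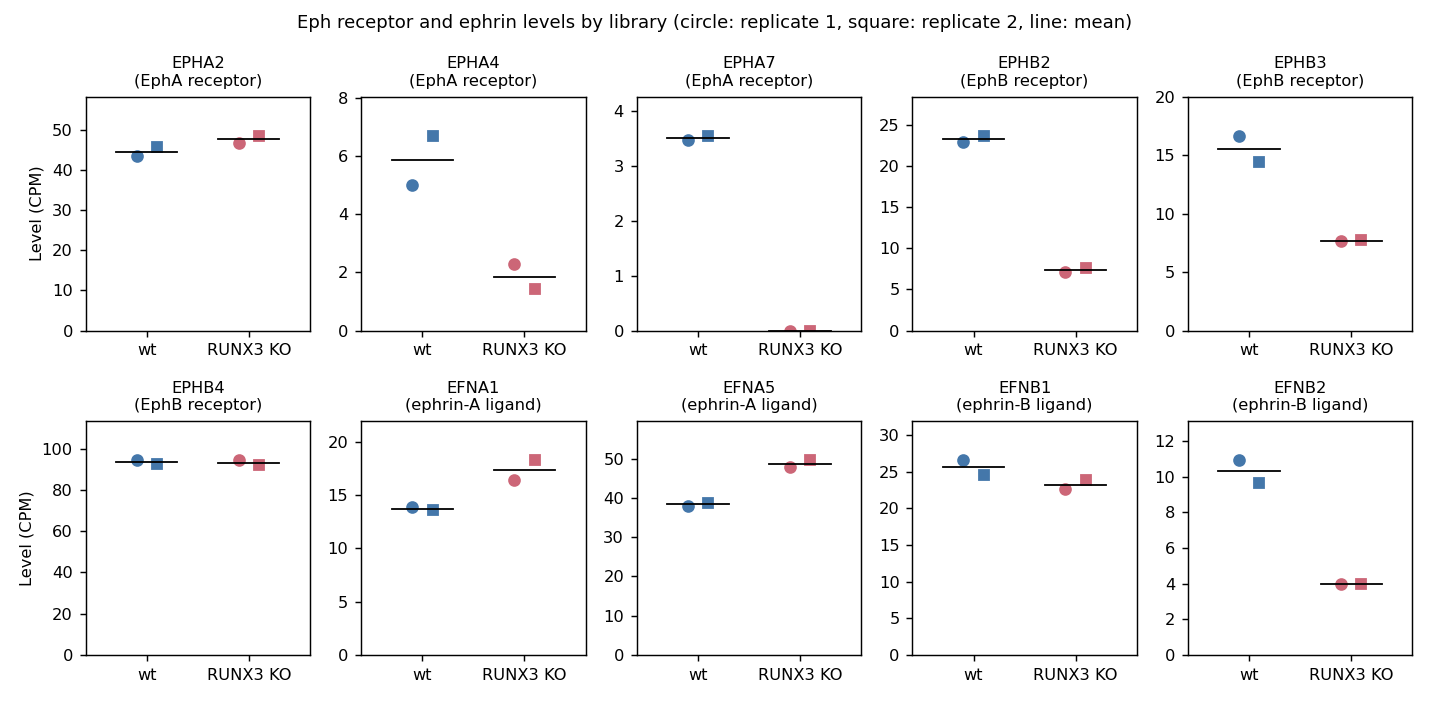
Level of each of the 10 genes in every library, in TMM-scaled CPM on a linear axis from 0 that differs between panels, with a point for each control (wt) and RUNX3 KO library and a line at the mean. EPHB2 sits near 23 CPM in both control libraries and near 7 CPM in both RUNX3 KO libraries, whereas the points of EPHB4 overlap near 93 CPM.

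Among the EphB receptors, EPHB2 and EPHB3 fell and EPHB4 was level. EPHB2 (chromosome 1, 23037332 to 23247993, plus strand; positions of genes are on hg19) had 271 and 280 counts in control and 84 and 91 in RUNX3 KO libraries. All RUNX3 KO values were below all control values, and the level fell from 23.3 ± 0.546 to 7.34 ± 0.320 CPM. The log2 fold change was -1.67 (SE 0.118; 95% interval -1.90 to -1.43; adjusted p = 1.5e-22), a 3.17-fold drop. In bulk RNA, fewer cells that carry a transcript and less of it per cell cannot be told apart, here or for any gene below.

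EPHB3 (chromosome 3, 184279573 to 184300196, plus strand), which acts beside EPHB2 in the gut epithelium, had 197 and 170 counts in control and 90 and 93 in RUNX3 KO libraries. The groups did not overlap, and the level fell from 15.5 ± 1.61 to 7.68 ± 0.0781 CPM, a log2 fold change of -1.02 (SE 0.130; 95% interval -1.27 to -0.76; adjusted p = 1.24e-10). Without wt replicate 1, the higher of the control libraries, the log2 fold change of EPHB3 was -0.91, which is under 2-fold.

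EPHB4 (chromosome 7, 100400187 to 100425145, minus strand) is the receptor for EFNB2 known from the lining of veins. It had 1115 and 1091 counts in control and 1113 and 1105 in RUNX3 KO libraries, and the groups overlapped. The log2 fold change was -0.01 (SE 0.0468; 95% interval -0.10 to 0.09; adjusted p = 0.936).

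Among the EphA receptors, EPHA7 and EPHA4 were the lower in level and fell. EPHA7 (chromosome 6, 93949738 to 94129405, minus strand), a receptor studied mostly in the developing nervous system, had 41 and 42 counts in control and 0 in both RUNX3 KO libraries. Its control level was 3.52 ± 0.0609 CPM. Against a floor of 3 counts per RUNX3 KO library the level was at least 14.0-fold lower, and the adjusted p was 1.45e-16. The gene passed the filter on low counts through its control libraries alone, so that it had to differ to be tested.

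EPHA4 (chromosome 2, 222282747 to 222438922, minus strand), the receptor that binds both ephrin classes, had 59 and 79 counts in control and 27 and 17 in RUNX3 KO libraries. Its replicates lay further apart than those of EPHB2, but the groups did not overlap. The level fell from 5.85 ± 1.20 to 1.85 ± 0.618 CPM, a log2 fold change of -1.66 (SE 0.238; 95% interval -2.13 to -1.18; adjusted p = 5.13e-09). Without RUNX3KO replicate 2, the lower of the RUNX3 KO libraries, the log2 fold change of EPHA4 was -1.35 with an adjusted p of 0.0674.

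EPHA2 (chromosome 1, 16450832 to 16482564, minus strand), an epithelial receptor for EFNA1, had 43.5 and 45.8 CPM in control and 46.7 and 48.6 CPM in RUNX3 KO libraries. The groups did not overlap, yet the difference did not pass the test, with a log2 fold change of 0.09 (SE 0.0655; 95% interval -0.04 to 0.23; adjusted p = 0.233). Non-overlap is weak at this size, since the smallest p of an exact permutation test between 2 and 2 libraries is 0.333.

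The ephrin-A ligands EFNA1 and EFNA5 both rose by a small amount. EFNA5 (chromosome 5, 106712595 to 107006638, minus strand), a guidance ligand in the developing brain, had 448 and 457 counts in control and 564 and 597 in RUNX3 KO libraries. Both RUNX3 KO libraries were above both control libraries, and the level rose from 38.3 ± 0.550 to 48.7 ± 1.32 CPM. The log2 fold change was 0.35 (SE 0.0673; 95% interval 0.21 to 0.48; adjusted p = 8.37e-06).

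EFNA1 (chromosome 1, 155100352 to 155107375, plus strand), an ephrin first found as a gene that tumour necrosis factor turns on in endothelium, had 164 and 160 counts in control and 194 and 220 in RUNX3 KO libraries. The level rose from 13.7 ± 0.236 to 17.4 ± 1.32 CPM, a log2 fold change of 0.34 (SE 0.110; 95% interval 0.12 to 0.56; adjusted p = 0.00692). This call was not kept by DESeq2 (adjusted p = 0.162), nor without RUNX3KO replicate 1 (0.0510), nor without RUNX3KO replicate 2, where the log2 fold change was 0.26.

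Of the ephrin-B ligands, EFNB2 fell and EFNB1 did not pass the test. EFNB2 (chromosome 13, 107142093 to 107188010, minus strand), the ligand of EPHB4 known from arteries, had 129 and 114 counts in control and 47 and 48 in RUNX3 KO libraries. The groups did not overlap, and the level fell from 10.3 ± 0.896 to 3.99 ± 0.00745 CPM, a log2 fold change of -1.37 (SE 0.168; 95% interval -1.70 to -1.03; adjusted p = 3.27e-11). EFNB2 is also on the study's lists of genes near RUNX3 binding sites. Those lists carry an expression fold change for each gene, so they were not taken as independent evidence of its direction. An antisense non-coding gene covers 36.4% of the exon length of EFNB2 in the annotation, and reads of the pair cannot be told apart because the sources used here do not give the strand setting.

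EFNB1 (chromosome X, 68048864 to 68062003, plus strand), the ligand mutated in craniofrontonasal syndrome, had 26.6 and 24.6 CPM in control and 22.6 and 23.9 CPM in RUNX3 KO libraries. The log2 fold change was -0.14 (SE 0.0885; 95% interval -0.31 to 0.04; adjusted p = 0.196).

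The genes around each locus were set beside it. Over the 40 nearest tested genes, the median log2 fold change was 0.07 around EPHA7, 0.07 around EPHA4, -0.06 around EPHB2, -0.02 around EPHB3 and -0.09 around EFNB2. Around EPHA7 0 of the 40 neighbours were as low as the gene itself, 1 of 40 was around EPHB2 and around EFNB2, and 3 of 40 were around EPHA4 and EPHB3. Around the risen ligands the neighbour medians were -0.06 for EFNA1 and 0.02 for EFNA5. They were 0.07 around EPHA2, -0.07 around EPHB4 and -0.10 around EFNB1, the genes that did not pass. The neighbours were described and not tested.

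Promoter sequences of these genes were read from RefSeq (GRCh38.p14), as windows of 300 bases from 250 before to 50 after each annotated start. The words TGTGGT and TGCGGT, the core that Runt-family factors bind, were searched on both strands. Of all 35116 promoter windows, 13.1% held TGTGGT, 7.29% held TGCGGT and 19.6% held either. All 10 genes were matched by symbol, to 14 windows. Of the 10 genes, 2 held either word in a window, EFNA5 and EFNB1, and the 9 windows of the 5 genes that fell held 0. These 9 are not separate, since those of EPHB2 begin at 22710588 and 22710589 and windows of EPHA7 overlap. The share of 19.6% is of windows and not of genes. Windows of EPHB2 and EFNB2 are printed as examples of genes that fell, and those of EFNA5 and EFNB1 because they hold a word. Each is 5′ to 3′ on the strand of its gene in lower case, with a word in capitals where there is one. A word on the reverse strand appears in these lines as its reverse complement. They lie at chr1:22710588-22710887 (plus strand), chr13:106535613-106535912 (minus strand), chr5:107670888-107671187 (minus strand) and chrX:68828771-68829070 (plus strand), in the order printed.
EPHB2: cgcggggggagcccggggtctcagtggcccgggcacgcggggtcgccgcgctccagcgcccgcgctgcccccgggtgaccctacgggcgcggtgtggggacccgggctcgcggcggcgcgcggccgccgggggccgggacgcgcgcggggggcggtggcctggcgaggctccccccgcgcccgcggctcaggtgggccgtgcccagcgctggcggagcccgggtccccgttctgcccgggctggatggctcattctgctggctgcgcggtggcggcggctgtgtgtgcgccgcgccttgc
EFNB2: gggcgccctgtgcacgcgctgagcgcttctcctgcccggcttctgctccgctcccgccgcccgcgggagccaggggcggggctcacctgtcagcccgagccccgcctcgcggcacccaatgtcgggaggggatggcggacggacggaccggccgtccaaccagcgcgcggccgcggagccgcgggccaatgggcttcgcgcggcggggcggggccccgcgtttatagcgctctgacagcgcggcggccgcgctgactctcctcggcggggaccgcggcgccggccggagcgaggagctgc
EFNA5: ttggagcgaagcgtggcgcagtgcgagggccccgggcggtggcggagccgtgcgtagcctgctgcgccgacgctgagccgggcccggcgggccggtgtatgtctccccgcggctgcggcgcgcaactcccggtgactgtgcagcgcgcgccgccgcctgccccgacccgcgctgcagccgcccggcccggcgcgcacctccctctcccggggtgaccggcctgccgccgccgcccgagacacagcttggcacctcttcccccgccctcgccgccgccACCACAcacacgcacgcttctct
EFNB1: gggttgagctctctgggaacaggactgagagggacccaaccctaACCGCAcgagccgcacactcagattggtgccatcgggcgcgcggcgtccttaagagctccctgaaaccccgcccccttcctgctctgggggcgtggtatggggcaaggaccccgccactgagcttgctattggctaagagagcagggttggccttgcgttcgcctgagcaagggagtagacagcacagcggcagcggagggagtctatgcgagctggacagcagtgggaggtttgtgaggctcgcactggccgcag

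In EFNA5 the word TGTGGT lay on the reverse strand with its first base 27 bases after the start, and in EFNB1 the word TGCGGT lay on the reverse strand 206 bases before the start. EFNA5 rose and EFNB1 did not pass the test, as given above. A word is a description of letters and not of binding, and its lack says only that these letters are not in these windows.

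Levels between genes were compared per length, as RPKM, the CPM divided by the exon length in kilobases. In the control libraries EPHB4 was the highest of the 10 at a mean of 14.5 RPKM, followed by EPHA2 at 10.8, EFNB1 at 7.75, EFNA5 at 6.68 and EFNA1 at 6.34. EPHB3 at 3.43, EFNB2 at 2.06 and EPHB2 at 1.86 RPKM came next, and EPHA4 at 0.774 and EPHA7 at 0.214 were last. No neighbours in this order overlapped between libraries. The 5 genes that fell were thus the 5 with the lowest control level per length.

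In the RUNX3 KO libraries EPHB4 was at 14.5 RPKM and EPHA2 was at 11.5. EFNA5 at 8.50 and EFNA1 at 8.02 RPKM overlapped between libraries and stood above EFNB1 at 7.04. EPHB3 was at 1.70, EFNB2 at 0.797, EPHB2 at 0.587 and EPHA4 at 0.245 RPKM, and EPHA7 was at 0. With the longest transcript as the length in place of all exons, 5 of the 10 genes kept their rank in control cells and 8 of the 10 in RUNX3 KO cells.

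The remaining 12 genes of the family were examined next, and 9 of them had enough counts to test. Of these 9, 4 fell and 3 rose, where 24.4% and 24.5% of all tested genes did. By the 2-fold criterion 1 was lower, EPHB6, where 4.01% of all tested genes were. EPHB6 was tested only through its control libraries, so the counts of falls are not read against these shares. Their median log2 fold change was 0.02. EPHB6, a receptor whose kinase domain is inactive, had 78 and 100 counts in control and 6 and 4 in RUNX3 KO libraries. Its level fell 17.5-fold, from 7.54 ± 1.32 to 0.421 ± 0.124 CPM, a log2 fold change of -4.13 (SE 0.311; 95% interval -4.75 to -3.52; adjusted p = 4.28e-21). It passed the filter through its control libraries, and 0 of its 40 nearest tested neighbours were as low. Its RefSeq window (GRCh38.p14, chr7:142862506-142862805, plus strand) is printed because EPHB6 fell most of the tested receptors with counts in both groups. The window held the word TGTGGT, in capitals, on the forward strand, with its first base 89 bases before the start that the window is built on. Windows were matched by symbol alone, and this start was not compared with the start of EPHB6 on hg19, so it may not be the gene's first. Of these 12 genes 10 were matched to windows, EPHA10 and EFNB3 being the others, and 4 held either word.
EPHB6: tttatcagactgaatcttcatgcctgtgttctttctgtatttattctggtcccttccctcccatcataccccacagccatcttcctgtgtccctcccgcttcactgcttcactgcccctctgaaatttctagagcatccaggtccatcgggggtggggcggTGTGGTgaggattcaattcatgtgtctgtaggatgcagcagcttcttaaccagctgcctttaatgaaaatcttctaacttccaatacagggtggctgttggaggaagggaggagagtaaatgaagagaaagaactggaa

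The other EphA receptors moved in both directions and by less than 2-fold. EPHA3 had 308 counts in both control libraries and 407 and 449 in RUNX3 KO, a log2 change of 0.46 (SE 0.0795; adjusted p = 6.35e-07). EPHA5 had 356 and 296 counts against 425 and 436, a log2 fold change of 0.39 (adjusted p = 2.53e-05). The call of EPHA5 was lost without RUNX3KO replicate 1 (adjusted p = 0.117) or RUNX3KO replicate 2 (0.137). EPHA8 also rose, with a log2 fold change of 0.40 and an adjusted p of 0.0467, and EPHA6 fell, with -0.60 and 0.0236. Under 14 alternative settings the call was lost in 9 for EPHA8 and in 5 for EPHA6. EPHA1 had 0 counts in every library, and EPHA10 (1 and 1 against 5 and 5 counts) and EPHB1 (4 and 5 against 5 and 1) were too low to test.

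The other ephrins showed small changes. EFNA3 had 165 counts in both control libraries and 117 and 107 in RUNX3 KO, a log2 change of -0.57 (SE 0.126; adjusted p = 7.68e-05), with an adjusted p of 0.0522 without RUNX3KO replicate 2. EFNB3, an ephrin-B ligand of the nervous system, had 198 and 242 counts against 167 and 179, a log2 change of -0.36 (SE 0.108; adjusted p = 0.00378), and its call was lost in 5 of 14 settings, DESeq2 among them (0.132). EFNA2 and EFNA4 did not pass, with log2 fold changes of 0.15 (adjusted p = 0.482) and 0.02 (0.884). EFNA3 and EFNA4 share exons with a readthrough gene of both, over 43.9% and 15% of their exon length, so that their counts are uncertain.

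**Figure D2:**
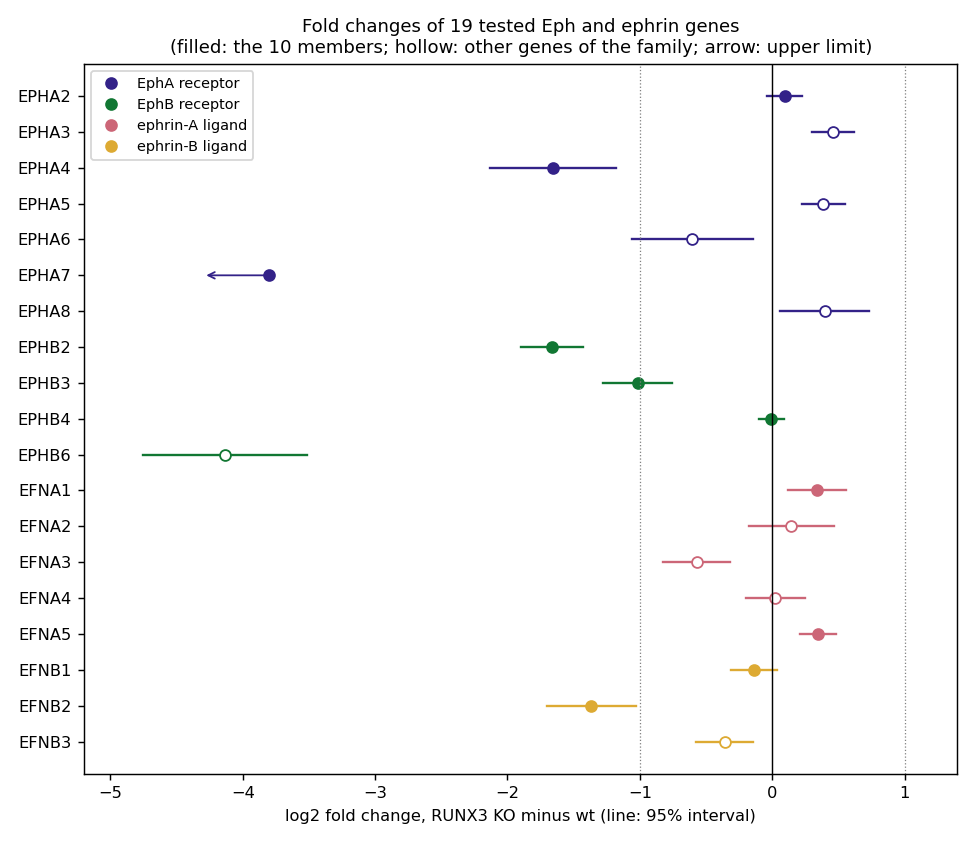
Log2 fold change of RUNX3 KO against control for the tested genes of the Eph and ephrin family, grouped by class, as points with lines for 95% intervals, filled for the 10 genes and hollow for the rest, and for EPHA7 with an arrow from its bound against the floor. The 3 EphB receptors EPHB2, EPHB3 and EPHB6 lie below 0 and EPHB4 lies at -0.01, whereas EphA receptors lie on both sides of 0.

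By class, 3 of the 4 tested EphB receptors and 2 of the 3 ephrin-B ligands fell, and 0 rose in either class. Of the 7 tested EphA receptors 3 fell and 3 rose, and of the 5 ephrin-A ligands 1 fell and 2 rose. Of all tested genes 24.4% were called lower and 24.5% higher. EPHB6 and EPHA7 are among those that fell and were tested only because their control libraries passed the filter, so the counts of falls are not read against that share. The summed RPKM of the EphB receptors was 21.5 and 21.1 in control and 17.1 and 16.7 in RUNX3 KO libraries, and that of the ephrin-B ligands was 15.5 and 15.7 against 12.0 and 12.7. Both sums were lower in RUNX3 KO by a ratio of 0.792, with no overlap between groups. The EphA sum was 19.5 and 20.1 RPKM against 21.9 and 22.9, and the ephrin-A sum was 35.0 and 34.3 RPKM against 36.8 and 35.8. These sums were described and not tested.

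The makeup of the EphB class moved with the falls. EPHB4 made up 68.3% and 68.1% of summed EphB RPKM in control and 85.8% and 85.7% in RUNX3 KO libraries. The share of EPHB3 was 17.1% and 15.1% against 9.86% and 10.2%, that of EPHB2 was 8.53% and 8.98% against 3.33% and 3.63%, and that of EPHB6 was 5.78% and 7.55% against 0.560% and 0.375%. The EPHB4 share was larger although the EPHB4 level itself did not pass the test. Within the ephrin-B ligands, EFNB2 made up 14.1% and 12.3% against 6.61% and 6.30%, and within the EphA receptors EPHA2 made up 53.7% and 55.1% against 51.5% and 51.1%.

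**Figure D3:**
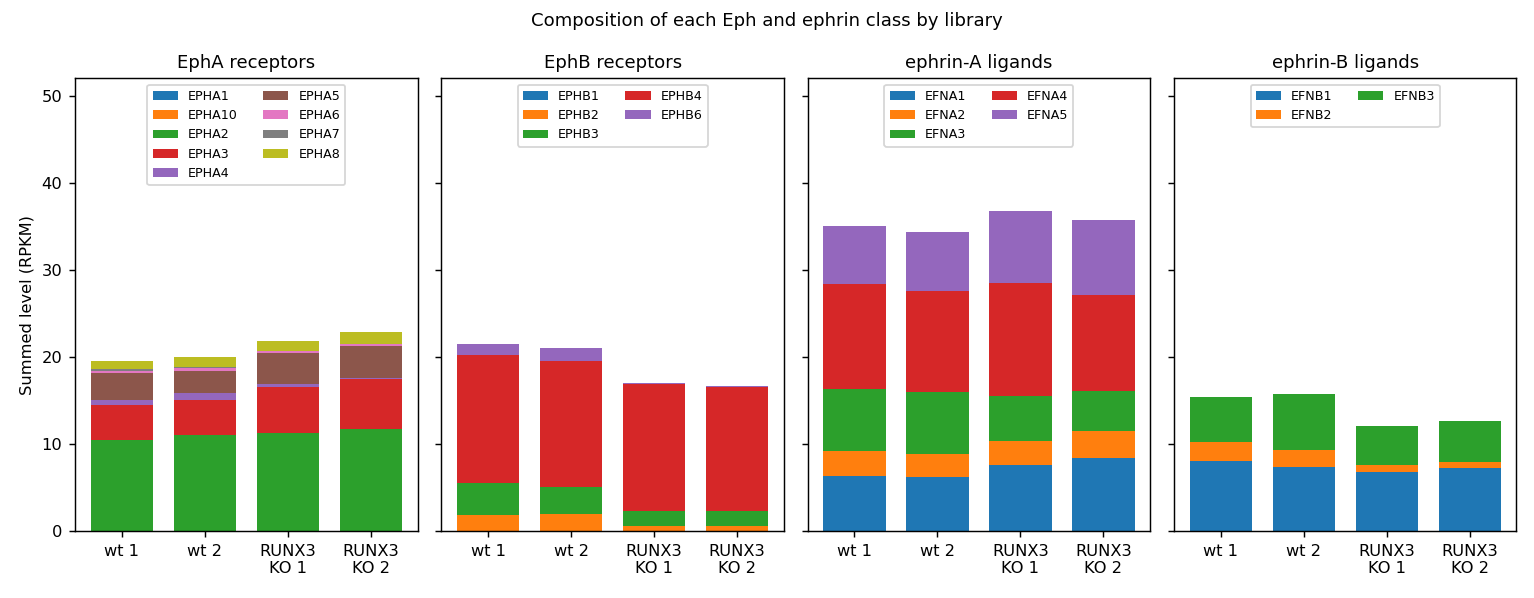
Summed RPKM of the EphA, EphB, ephrin-A and ephrin-B classes in each of the 4 libraries (wt is control), with each gene of a class as a segment of a stacked bar that starts at 0. The EphB bars are shorter in the RUNX3 KO libraries, and EPHB4 fills 85.8% and 85.7% of them.

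Genes that carry Eph and ephrin signals within the cell were taken from a list of 43 partners, of which 39 were tested. Of these 39, 7 fell and 11 rose (17.9% and 28.2%), near the 24.4% and 24.5% of all tested genes, and 21 were not called. The median log2 fold change was 0.02. The same shares of all tested genes apply to the counts by role below, which are small. The counts of calls depended on the setting. DESeq2 called 4 partners lower and 7 higher, the fit without a filter called 4 lower, and the lowest counts on leaving out 1 library were 3 lower and 5 higher without RUNX3KO replicate 1 and 3 lower without RUNX3KO replicate 2.

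Of the 7 kinases tested, 2 fell and 2 rose. FYN, a Src-family kinase that acts downstream of EphA receptors, fell most. It had 109 and 94 counts in control and 7 and 19 in RUNX3 KO libraries, a log2 change of -2.97 (SE 0.247; adjusted p = 1.11e-18), and it passed the filter on low counts through its control libraries. Without RUNX3KO replicate 2, the library with 19 counts, the log2 change of FYN was -3.83, and without RUNX3KO replicate 1 it was -2.43. LYN, of the same kinase family, had 135 and 113 counts against 208 and 194, a log2 change of 0.68 (SE 0.119; adjusted p = 7.65e-07), with an adjusted p of 0.0591 without RUNX3KO replicate 1.

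Of the 12 adaptors and related regulators tested, 1 fell and 3 rose. AFDN, which encodes the junction protein afadin and stands in the tables under its older symbol MLLT4, had 213 and 182 counts in control and 468 and 553 in RUNX3 KO libraries, a log2 change of 1.36 (SE 0.0876; adjusted p = 6.04e-25). PICK1, a PDZ protein that binds Eph tails, had a log2 fold change of -0.56 (adjusted p = 0.00014), and its call was lost without RUNX3KO replicate 1 (0.128) or RUNX3KO replicate 2 (0.102). Over the 40 nearest genes around PICK1 the median log2 change was -0.47, and of these 32 were called lower and 14 were as low as PICK1.

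Of 5 proteins that bind the tail of ephrin-B, 3 were tested, of which 1 fell and 2 rose. PTPN13, a phosphatase, had 2843 and 2695 counts against 1739 and 1722, a log2 change of -0.69 (SE 0.0361; adjusted p = 6.18e-31). RGS3, a regulator of G protein signals, rose by 0.59 on the log2 scale (adjusted p = 4.96e-09), and SDCBP, which encodes the scaffold syntenin, rose by 0.26 (adjusted p = 7.74e-07). GRIP1 and PARD6A were too low to test.

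Of the 4 proteases and phosphatases tested, 3 rose and the other did not pass, where 24.5% of all tested genes rose. ADAM10, a protease that sheds ephrins, had 958 and 976 counts against 1149 and 1294, a log2 change of 0.32 (SE 0.0485; adjusted p = 1.74e-08). The genes around ADAM10 were also higher, with a median of 0.24 over the 40 nearest, of which 23 were called higher and 16 were as high as ADAM10.

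**Figure D4:**
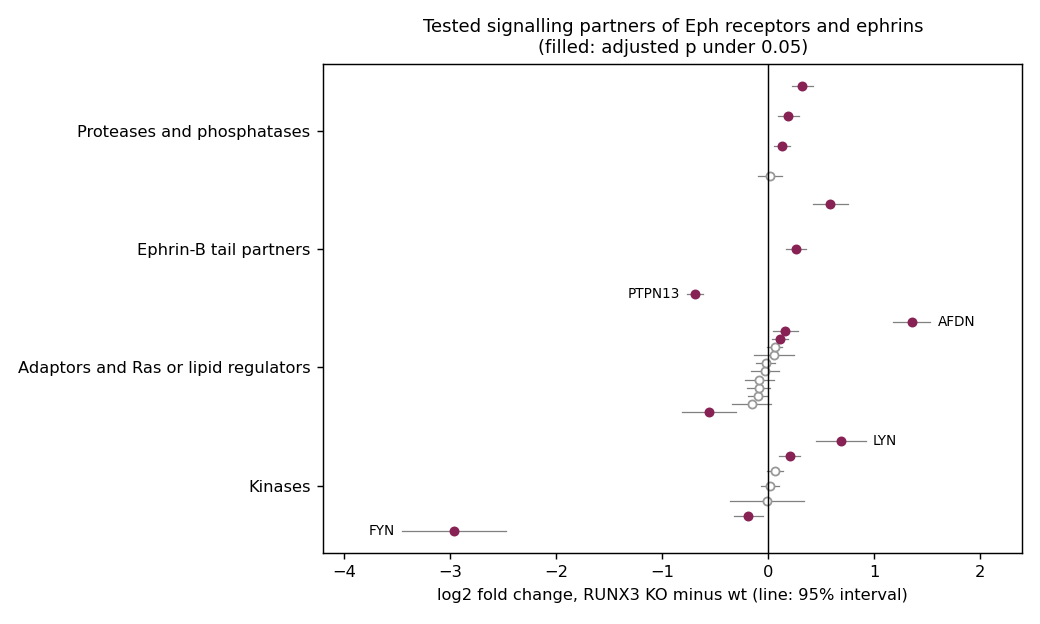
Log2 fold change of RUNX3 KO against control for tested signalling partners among the kinases, adaptors, ephrin-B tail partners, proteases and phosphatases, grouped by role, as points with lines for 95% intervals, filled where the adjusted p is under 0.05. FYN lies lowest at -2.97 and AFDN lies highest at 1.36, and most other partners lie near 0.

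Markers of cell types were set beside these results. The labels call the cells gastric cancer, and the line is known as a poorly differentiated carcinoma. Of the epithelial markers, EPCAM (at most 1 count) and KRT19 (0 counts) were absent or nearly so in every library, and KRT18 had 0 counts in both control libraries and 2 and 14 in RUNX3 KO. CDH1 (15 and 21 counts against 30 and 32) and KRT8 (19 and 11 against 72 and 81) were present in every library at low counts. The summed level of the 5 epithelial markers ranged from 2.80 to 2.96 CPM in control and from 8.81 to 10.6 CPM in RUNX3 KO libraries, and 2 of the 5 were called higher, CDH1 and KRT8. Of 5 fibroblast markers 4 were called lower, and their sum ranged from 347 to 350 CPM in control and from 243 to 250 CPM in RUNX3 KO libraries, while none of these 5 was at 0. Of 7 endothelial markers, a cell type in which EFNB2 and EPHB4 are known, 5 were at 0 in every library and 6 had at most 3 counts. The 5 leukocyte markers summed to 1.19 to 1.78 CPM in control and 0.665 to 0.932 CPM in RUNX3 KO libraries, with 1 called lower and 2 at 0 in every library. The epithelial and fibroblast sums moved with the falls of EPHA4, EPHA7, EPHB2, EPHB3 and EFNB2 and the rises of EFNA1 and EFNA5, and their part in these was not tested.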

How the data were processed

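Gene expression was measured by RNA-seq of poly(A) RNA in 4 libraries of HGC-27 cells, 2 per condition, with groups taken from the sample titles. The authors deposited raw read counts per gene symbol on hg19. The paper's methods name STAR and featureCounts with GENCODE genes, whereas the submitters' processing notes name HISAT2 2.1.0 and HTSeq, and the tables close in the form of htseq-count. The strand setting is not given in the sources used here. The 5 closing entries that name no gene took 25.9% to 28.1% of counts and stayed out of library sizes and tests.

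Counts were filtered with filterByExpr (minimum count 10, minimum total 15), scaled by TMM and compared with edgeR 4.0.16 (R 4.3.3), quasi-likelihood test, adjusted by Benjamini-Hochberg over 12967 genes. The common dispersion was 0.000211. Standard errors came from log2 fold changes and the square root of their F. At 11731401 to 12110876 counts per library, genes of few counts are imprecise. Where both libraries of a group held 0 counts, a floor of 3 counts per library was used, which covers counting error only. Exon lengths for RPKM came from GENCODE genes on hg19. Scripts were tested on simulated counts.

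The named genes were RUNX3, the 10 members, the other 12 genes of the family and, of a list of partners, the 5 with the largest change in each direction among those with an adjusted p under 0.05. Some of these partners are not reported here, and SDCBP, CDH1, KRT8 and other markers were named after their values were seen. Members and lists were chosen with earlier results of these data known. Alternatives were other scalings, DESeq2 1.42.0, edgeR's exact test, limma 3.58.1 (voom), other filters, a replicate term and leaving out each library. Replicate pairs differed by slightly more than sampling noise (chi-square per degree of freedom 1.22 in control, 1.18 in RUNX3 KO). Each was entered as a library of its own, though this small excess does not show that replicates came from separate cultures.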

Additional observations from a re-analysis of the deposited data

How the results depend on the processing

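EPHB2, EPHB3, EFNB2 and EFNA5 kept direction and call in 14 of 14 alternatives, EPHA7 in 13 of the 13 that tested it, EPHA4 in 13 of 14 and EFNA1 in 11 of 14. EPHA2, EPHB4 and EFNB1 passed in 0 of 14, with adjusted p values from 0.196, 0.677 and 0.133 up. With DESeq2, 1 of the 10 genes was higher, 4 partners were lower and 7 were higher, and without a filter 4 partners were lower. Leaving out 1 library gave 4 to 5 of the 10 genes lower, 1 to 2 higher, 3 to 6 partners lower and 5 to 10 higher, in fits where the lone library of a group is assumed to vary like the other group. The cause was not tested. By the longest transcript 5 of 10 ranks were kept in control cells. Of the genes followed over these alternatives, none past the test changed direction. SDCBP, CDH1, KRT8 and the other markers were not followed. EPHB4 and EFNA4, which did not pass, changed sign on leaving out 1 library, to 0.01 for EPHB4 without wt replicate 1 or RUNX3KO replicate 2, and to -0.0069 and -0.10 for EFNA4 without wt replicate 2 or RUNX3KO replicate 1.

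Same-numbered libraries did not deviate together (correlation 0.0161 over 12967 genes). Counting noise alone can hold this value near 0, so it does not settle whether the replicate numbers pair the samples. With the replicate block 5 of the 10 genes were lower and 2 higher, and 6 partners were lower and 11 higher. The block took away the call of 1 partner and changed no other call among the genes followed over the alternatives. SDCBP and the cell type markers were not followed.

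Over all tested genes DESeq2 called 1863 lower and 1829 higher, against 3158 and 3183. Leaving out RUNX3KO replicate 1 gave 1531 and 1483, and leaving out RUNX3KO replicate 2 gave 1378 and 1285. Requiring 10 counts in every library left 298 lower and 160 higher at 2-fold, against 520 and 274. EPHA4 and EPHB6, with at most 100 counts in each library, had standard errors of 0.238 and 0.311, against 0.0468 for EPHB4.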
